A study of Mus musculus with 36 samples.

Results

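ATAC-seq, which reads chromatin accessibility from the cuts of a transposase, was used on mouse CD4 T cells, and 8 genes of T cell receptor signalling were examined in it. The genes were Nfatc1 and Nfatc2, Nr4a1, Nr4a2 and Nr4a3, and Egr1, Egr2 and Egr3. Their peaks were those whose midpoint lay nearest to a protein-coding transcription start site (TSS) of one of these genes, or that overlapped one of their gene bodies (GENCODE vM39, GRCm39). This gave 122 of the 71509 peaks, and the nearest-TSS criterion alone gave the same 122. Nfatc1 (chr18:80649266-80756295, minus strand) held 32 and Nfatc2 (chr2:168318330-168443693, minus strand) 25. Nr4a1 (chr15:101151980-101172681, plus strand) held 12, Nr4a2 (chr2:56996842-57014331, minus strand) 7 and Nr4a3 (chr4:48045153-48086447, plus strand) 12. Egr1 (chr18:34992876-34998049, plus strand) held 8, Egr2 (chr10:67371305-67378018, plus strand) 12 and Egr3 (chr14:70314350-70320063, plus strand) 14. Each peak is named by its gene and the distance of its midpoint from that gene's TSS, positive in the direction of transcription.

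The 12 groups of 3 libraries combined a mouse line (HP1α or HP1γ), a genotype (KO or WT) and a condition. HP1α KO cells came from Hp1a-/- mice, in which the floxed sequence had been excised by CMV-cre, and their WT cells from Hp1a+/+ littermates. HP1γ KO cells came from mice homozygous for floxed Hp1g that carried the Cd4-cre transgene, whose Cre is expressed in developing T cells, and their WT cells from floxed littermates without Cre, so that both genotypes of this line carried the floxed allele. Loss of HP1γ and presence of the Cre transgene therefore cannot be told apart in this line. Both lines had a mixed 129/Sv and C57BL/6 background. Naive cells were splenic CD4+CD62L+CD44-/low cells isolated by negative selection. Tconv were the progeny of such cells, sorted as donor-specific CD4+ TCR Vβ6+ cells without Thy1.1 from lethally irradiated B6 hosts that had been grafted with B6 and B6D2F1 bone marrow, and Tconv exposed to Treg came from hosts that also received ex vivo expanded WT Treg, which carried Thy1.1. Naive cells and Tconv therefore differed in host and in sort as well as in activation, which cannot be told apart. In these bulk samples a larger share of cells with open chromatin and more open chromatin per cell cannot be told apart either. The labels give no animal for a library, so p-values measure the spread between these libraries, which may be technical in part.

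NFATc1 and NFATc2 are transcription factors that the phosphatase calcineurin sends to the nucleus when calcium rises after T cell receptor triggering. NR4A proteins are orphan nuclear receptors, and EGR proteins are zinc-finger factors. Both families are induced early after receptor triggering and are known for their part in T cell tolerance and exhaustion as well as in early activation. NFAT acts with AP-1 on effector cytokine genes, and without AP-1 it is linked to anergy, in which Egr2 and Egr3 and the NR4A genes have also been placed.

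The sequences of the peaks on which the comparisons turned are shown first, as 300 bases around the peak centre on the plus strand of GRCm39. Capitals mark matches, on either strand, to motifs searched by their letters, which were TGANTCA (AP-1), TGGAAA (NFAT), TGTGGT (RUNX), TGACGTCA (CRE), GCGNGGGCG (EGR), AAAGGTCA (NBRE, the site of NR4A monomers) and GGGNGTGG (KLF), and to the CArG box of SRF. AP-1 and CRE differ in length and no printed match of one motif overlaps another.
The 3 Nfatc2 peaks were open in Tconv and lower with Treg or without HP1γ. They lie at chr2:168330426-168330725, chr2:168374056-168374355 and chr2:168437511-168437810, all in introns, and the window of the second also overlaps an exon of a long noncoding RNA.
Nfatc2 +101.7 kb: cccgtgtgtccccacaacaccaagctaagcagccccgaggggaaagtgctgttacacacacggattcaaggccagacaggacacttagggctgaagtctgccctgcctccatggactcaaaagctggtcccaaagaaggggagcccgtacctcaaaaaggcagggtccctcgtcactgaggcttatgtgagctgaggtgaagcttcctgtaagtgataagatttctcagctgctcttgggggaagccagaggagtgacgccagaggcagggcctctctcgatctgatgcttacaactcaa
Nfatc2 +58.1 kb: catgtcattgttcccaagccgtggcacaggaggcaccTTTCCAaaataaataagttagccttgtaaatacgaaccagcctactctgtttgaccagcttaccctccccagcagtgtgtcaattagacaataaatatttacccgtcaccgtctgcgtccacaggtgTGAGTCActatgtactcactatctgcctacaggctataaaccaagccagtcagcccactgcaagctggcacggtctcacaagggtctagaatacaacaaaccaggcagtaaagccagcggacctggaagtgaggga
Nfatc2 -5.4 kb: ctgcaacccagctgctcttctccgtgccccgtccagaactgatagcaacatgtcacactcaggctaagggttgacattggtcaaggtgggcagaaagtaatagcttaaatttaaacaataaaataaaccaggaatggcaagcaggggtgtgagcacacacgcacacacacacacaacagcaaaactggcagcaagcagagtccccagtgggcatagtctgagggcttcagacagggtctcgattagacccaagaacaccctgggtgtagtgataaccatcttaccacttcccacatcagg

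The NR4A peaks comprised the intronic Nr4a2 peak that was higher with Treg (chr2:57010876-57011175) and the upstream peaks of Nr4a3 (chr4:47964886-47965185) and Nr4a1 (chr15:101148466-101148765) that were open in naive cells and lower in Tconv.
Nr4a2 -4.8 kb: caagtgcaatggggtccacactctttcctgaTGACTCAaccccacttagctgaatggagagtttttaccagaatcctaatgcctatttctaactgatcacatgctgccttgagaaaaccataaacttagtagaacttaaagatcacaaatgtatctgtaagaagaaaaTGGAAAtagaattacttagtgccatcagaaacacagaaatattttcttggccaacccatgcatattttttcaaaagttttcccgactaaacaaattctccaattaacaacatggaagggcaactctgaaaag
Nr4a3 -80.1 kb: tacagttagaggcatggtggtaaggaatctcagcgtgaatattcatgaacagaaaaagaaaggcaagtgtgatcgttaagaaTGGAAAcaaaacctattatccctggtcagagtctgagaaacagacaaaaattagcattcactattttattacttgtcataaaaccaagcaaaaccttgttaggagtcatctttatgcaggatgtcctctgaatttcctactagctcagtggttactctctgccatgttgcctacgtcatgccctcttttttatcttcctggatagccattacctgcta
Nr4a1 -16 kb: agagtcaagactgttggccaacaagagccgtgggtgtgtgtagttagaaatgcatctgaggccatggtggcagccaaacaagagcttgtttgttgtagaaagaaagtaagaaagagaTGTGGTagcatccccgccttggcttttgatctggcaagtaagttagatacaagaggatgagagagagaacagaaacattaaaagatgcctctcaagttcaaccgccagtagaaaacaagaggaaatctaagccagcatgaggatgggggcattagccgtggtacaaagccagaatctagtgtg

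The 200 bases upstream of the TSS of Egr2 (chr10:67373492-67373691) are shown with their CArG box, which 1.07% of 21580 promoters held in this window and which is not given as particular to this gene. The window also overlaps an exon of a long noncoding RNA.
Egr2 upstream of TSS: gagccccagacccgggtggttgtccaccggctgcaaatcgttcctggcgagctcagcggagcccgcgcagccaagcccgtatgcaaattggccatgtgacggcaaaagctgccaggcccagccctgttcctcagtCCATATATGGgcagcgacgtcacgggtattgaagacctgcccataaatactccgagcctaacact

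In the same window Egr1 held an NFAT match, which 15% of promoters share. Over the 122 peak windows of 300 bases, 26 held NFAT letters (21.3%), against 23.7% of all peaks, 15 held AP-1 (12.3% against 13%) and 33 held RUNX (27.0% against 30.0%). CRE, EGR and NBRE letters were in 0 of the 122 windows, against 0.832%, 2.15% and 1.94% of all peaks. In the printed windows AP-1 and NFAT letters stand together in Nfatc2 +58.1 kb and Nr4a2 -4.8 kb, whereas Nfatc2 +101.7 kb and Nfatc2 -5.4 kb hold no match. These matches are letters in a window and were not tested as binding sites.

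Libraries held between 1.49 and 96.8 M reads at peaks, where M stands for mega. The study left out 3 HP1α libraries with Treg for low quality, 1 of WT and 2 of KO, in which 44.6% to 46.8% of reads lay in peaks at a TSS, against 50.3% to 56.6% in the 33 kept. In HP1α Tconv exposed to Treg this leaves 2 WT libraries, of 12.7 and 1.49 M reads, and 1 KO library of 50.7 M. Peaks at the targeted genes, Cbx5 for HP1α and Cbx3 for HP1γ, moved by log2 fold changes between -0.88 and 0.12 with none called, which does not check the labels, since a deletion need not touch accessibility at these peaks. At Cd4, whose regulatory sequence drives the Cre transgene of the HP1γ line, the peak at +3.8 kb was higher in KO than in WT by 2.77, 2.55 and 2.60 on the log2 scale in naive cells, Tconv and Treg-exposed Tconv (edgeR adjusted p 1.43e-11, 5.76e-11 and 6.93e-11), without overlap. The peak at -3.4 kb was higher too, by 1.71, 1.2 and 1.47, and the other 4 Cd4 peaks, among them those nearest the TSS, were not called.

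Naive replicate 1 of the HP1α line stood apart from replicates 2 and 3 at NR4A genes, in both genotypes. At the intronic Nr4a3 +17.8 kb peak (chr4:48059431-48066570) accessibility, as log2 CPM (counts per M reads), was 5.18, 1.54 and 1.67 in WT replicates 1 to 3 and 4.75, 1.56 and 1.81 in KO. The 6 naive libraries of the HP1γ line lay between 4.25 and 4.97, next to replicate 1. In all, 3 of the 12 Nr4a3 peaks and 2 of the 7 Nr4a2 peaks were higher in replicate 1 than in both other replicates by over 1 on the log2 scale in WT and in KO, against 0.629% of all peaks and 0 peaks of the other 6 genes. Tconv libraries of the HP1α line had 3.77 to 4.64 at Nr4a3 +17.8 kb, so whether this peak opened between naive cells and Tconv depended on the naive replicate.

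Levels at the promoters of the 8 genes were compared first, per kb of the peak over the TSS, since these peaks ranged in width from 4910 bp (Egr2) to 15170 bp (Nfatc1). In HP1γ WT naive cells, log2 CPM per kb was highest for Egr2 (5.32 ± 0.067, SD, n = 3), followed by Egr1 (4.86 ± 0.043) and Nr4a3 (4.83 ± 0.032), which lay within their spread of each other. Egr3 had 4.60, Nfatc2 4.05 and Nr4a1 3.73. Nfatc1 (3.50 ± 0.051) and Nr4a2 (3.50 ± 0.04) were lowest and did not differ beyond their spread. In HP1γ WT Tconv the order began with Egr2 (5.27), Egr1 (5.19) and Nfatc2 (5.09), and Nr4a2 (4.46) stood above Nfatc1 (4.05) and Nr4a1 (3.97). The immediate-early Egr and Nr4a3 promoters were thus already open in naive cells, and Nfatc2 and Nr4a2 moved up the order in HP1γ WT Tconv. In HP1α KO cells Nfatc2 was at rank 5 in naive cells and in Tconv.

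**Figure D1:**
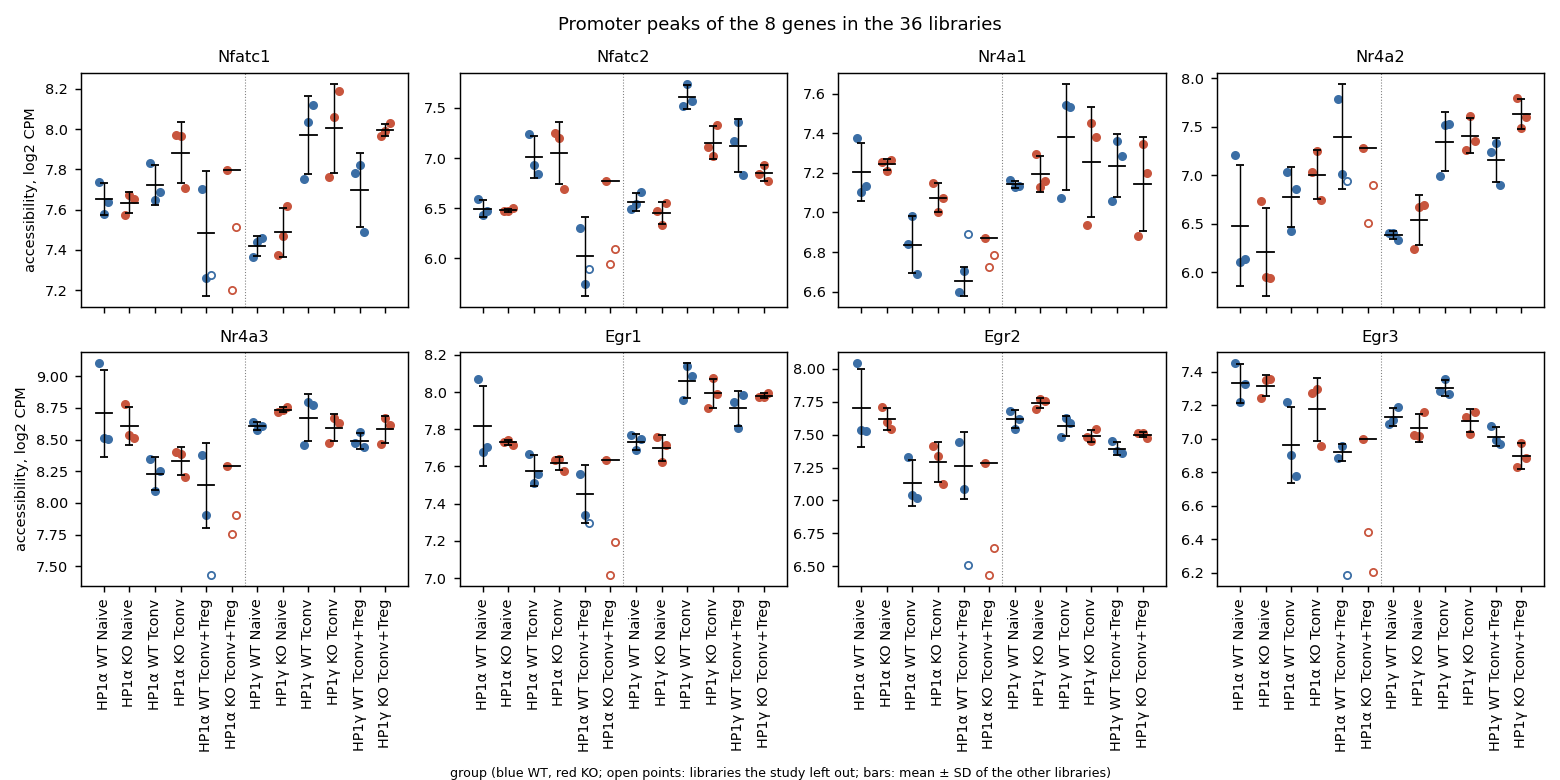
Accessibility of the promoter peak of each gene (log2 CPM, vertical axis) in the 12 groups (horizontal axis), with 1 point per library, open points for the 3 libraries left out by the study, and bars for the mean ± SD of the others. Nfatc2 and Nr4a2 are higher in HP1γ WT Tconv than in naive cells with no overlap, whereas Egr2 and Nr4a3 overlap.

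To ask which elements of these genes open or close when naive cells become Tconv, the conditions were compared in each line and genotype. A call needed an edgeR adjusted p under 0.05 together with a log2 fold change over 1 in size. In HP1γ WT cells 44 of the 122 peaks were called higher in Tconv (36.1% against 24.5% of all peaks) and 14 lower (11.5% against 22.0%), together 47.5% against 46.5%. For HP1α WT these were 39 higher (32% against 24.9%) and 14 lower (11.5% against 17.5%), together 43.4% against 42.5%. For HP1α KO they were 38 (31.1% against 23.5%) and 13 (10.7% against 19.0%), together 41.8% against 42.6%, and for HP1γ KO 38 (31.1% against 22.4%) and 13 (10.7% against 20.6%), together 41.8% against 43.0%. The number of calls was thus near the background, but more of them were higher and fewer lower, with a median log2 fold change of 0.58 in HP1γ WT cells against 0.08 for all peaks. These 4 comparisons share no library. Called higher in all 4 were 29 peaks, against a background of 17.7%, and called lower in all 4 were 11, against 14.6%, and no peak was called in opposite directions. The counts by gene that follow are to be read against these shares.

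Nfatc2, which encodes the NFAT factor abundant in resting T cells, had the largest number of peaks called higher in all 4 comparisons among the 8 genes. In all 4 comparisons the same 15 of its 25 peaks were called higher and the same 1 lower. At the intronic Nfatc2 +98.0 kb peak (chr2:168333431-168335050), log2 CPM was -0.53, -0.44 and -0.15 in the HP1α WT naive libraries and 4.14, 3.91 and 4.21 in Tconv. In the HP1γ line the naive libraries had -0.86, -1.39 and -1.13 and the Tconv 4.47, 4.17 and 3.75. The peak was nearly closed in naive cells of both lines and open in every Tconv library, with a log2 fold change of 4.55 (SE 0.19, edgeR adjusted p 5.55e-11), or 23.4-fold, in HP1α WT cells. The promoter of Nfatc2 rose less, from 6.49, 6.54 and 6.67 to 7.52, 7.74 and 7.57 in HP1γ WT cells, a log2 fold change of 1.11 (edgeR adjusted p 3.51e-08), and by 0.60 in HP1α WT cells (adjusted p 0.00172), under the threshold on the fold. The peak with the smallest p in HP1γ WT cells, Nfatc2 +6.1 kb, gained 1.89 (SE 0.10, edgeR adjusted p 1.71e-11). Against this, the intronic Nfatc2 +36.6 kb peak fell from 3.0, 3.18 and 3.10 to 0.46, 0.62 and 0.40, a log2 fold change of -2.57 (SE 0.23, edgeR adjusted p 1.09e-08). A naive element thus closed among 15 that opened within the same gene.

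Nfatc1, whose inducible promoter is a known target of NFAT itself, had 5 of 32 peaks called higher and 2 lower in all 4 comparisons. Both shares lay under those of all peaks (17.7% higher and 14.6% lower). The intronic Nfatc1 +89.9 kb peak (chr18:80659281-80663690) had 1.07, 0.87 and 0.92 in HP1γ WT naive cells and 4.26, 5.01 and 4.93 in Tconv, a 14.9-fold difference (log2 3.90, SE 0.29, edgeR adjusted p 7.75e-10). Its calls higher lay within the gene body, and those lower lay upstream. Of the latter the smallest p was at Nfatc1 -76.3 kb (log2 fold change -2.20) in HP1γ WT cells and at Nfatc1 -30.3 kb (-1.10) in HP1α WT cells. The promoter peak had 0.62 and 0.13 in the WT cells of HP1γ and HP1α and was not called. It is 15170 bp wide and spans the canonical TSS and the 5' end of the gene, so it cannot show the inducible promoter alone.

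The NR4A genes differed among themselves. Nr4a2 had calls higher at 6 of 7 peaks in HP1γ WT cells, 3 in HP1γ KO cells, and 3 and 5 in HP1α WT and KO cells. Its promoter had 6.41, 6.40 and 6.34 in HP1γ WT naive cells and 6.99, 7.52 and 7.53 in Tconv, a log2 fold change of 1.05 (SE 0.14, edgeR adjusted p 2.66e-06), and was not called in HP1α WT cells at 0.29. Without naive replicate 1 the latter was 0.79 (adjusted p 0.0123). The only lower call of Nr4a2 in HP1γ WT cells was at -60.5 kb, with -1.37. In HP1α WT cells the higher call of smallest p was Nr4a2 +13.3 kb, with 1.66.

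Nr4a3 had 0 calls higher and 2 or 3 lower in each of the 4 comparisons. Its upstream Nr4a3 -80.1 kb peak (chr4:47964701-47965370) had 3.47, 3.39 and 3.42 in HP1γ WT naive cells and 0.00, -0.31 and -0.09 in Tconv, an 11.6-fold decrease (log2 -3.54, SE 0.19, edgeR adjusted p 1.79e-11). The promoter of Nr4a3, the most accessible of the 8 by CPM, had 8.64, 8.58 and 8.61 in naive cells and 8.46, 8.79 and 8.77 in Tconv, which overlap (log2 fold change 0.14, edgeR adjusted p 0.125). The absence of higher calls in the HP1α line rested on naive replicate 1. Without it, Nr4a3 +12.7 kb, +17.8 kb and +24.6 kb were called higher in both genotypes, with log2 fold changes of 2.28, 2.95 and 2.83 in WT and 2.38, 2.61 and 3.0 in KO. With it they were 0.96, 0.86 and 1.07 in WT and 1.02, 0.77 and 0.98 in KO. In the HP1γ line, whose naive libraries were all open at +17.8 kb, none of the 3 was called.

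Nr4a1 had 1 of 12 peaks called higher and 1 lower in all 4 comparisons, both upstream of the gene. Both shares lay under those of all peaks (17.7% higher and 14.6% lower). Nr4a1 -16 kb (chr15:101147951-101149280) had 4.87, 4.90 and 4.86 in HP1γ WT naive cells and 1.13, 1.80 and 2.05 in Tconv, an 8.86-fold decrease (log2 -3.15, SE 0.20, edgeR adjusted p 9.70e-11), while Nr4a1 -22.6 kb rose by 1.94 on the log2 scale. These peaks lie close to each other and moved in opposite directions. The Nr4a1 promoter was not called, at 0.32 in HP1γ WT cells and -0.29 in HP1α WT cells.

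Of the EGR genes, Egr2, which restrains effector T cells, had the most calls, 4 higher and 3 lower in all 4 comparisons, all upstream of its TSS. Egr2 -54.1 kb (chr10:67318801-67320440) had 0.56, -0.25 and 0.22 in HP1γ WT naive cells and 4.16, 4.31 and 4.21 in Tconv. In HP1α WT cells it had 0.15, -0.11 and -0.55 against 4.12, 3.77 and 3.36. It was 17.6-fold higher in HP1γ WT Tconv (log2 4.14, SE 0.20, edgeR adjusted p 5.45e-12). Egr2 -107.8 kb fell by 2.95 on the log2 scale in the same cells. The Egr2 promoter itself had 7.68, 7.55 and 7.62 in naive cells and 7.48, 7.62 and 7.59 in Tconv (log2 fold change 0.01, edgeR adjusted p 0.885), and in HP1α WT cells it had -0.52 (adjusted p 0.0074), or -0.27 without naive replicate 1 (adjusted p 0.0876).

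Egr3, which acts with Egr2, had 2 of 14 peaks called higher in all 4 comparisons and 1 lower. Both shares lay under those of all peaks (17.7% higher and 14.6% lower). Egr3 -76.1 kb had 3, 10 and 12 reads in the HP1γ WT naive libraries and 191, 96 and 97 in Tconv (log2 fold change 4.36, SE 0.56, edgeR adjusted p 4.65e-07). Egr3 -104.1 kb had -2.37. Egr1, the early growth response gene that serum induces through SRF, had 0 peaks called higher in all 4 comparisons and 1 lower, Egr1 +31.9 kb, with -3.23 in HP1γ WT cells. Egr1 +17.0 kb had 9, 6 and 4 reads in HP1γ WT naive libraries and 120, 39 and 20 in Tconv, with a log2 fold change of 3.65 (SE 0.57, edgeR adjusted p 4.00e-06), and Egr1 -1.7 kb had 1.23 in HP1α WT cells. The promoters of Egr1 and Egr3 moved by 0.39 and 0.24 in HP1γ WT cells and by -0.19 and -0.28 in HP1α WT cells, none of them called.

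By position, 2 of 8 promoter peaks (those of Nfatc2 and Nr4a2) and 56 of the other 114 were called in HP1γ WT cells, where 46.5% of peaks at any position were called. For HP1α WT it was 0 of 8 and 53 of 114, against 42.5%. The shares over all promoter peaks were not computed, so these counts describe the 8 genes only. The promoter peaks were wider (median 7360 bp against 845 bp) and more open in naive cells (median log2 CPM 7.28 against 1.68). Of the 29 peaks called higher in all 4 comparisons 5 held AP-1 letters (17.2%), against 22.9% of all peaks called so, and of the 15 in Nfatc2 1 held them. Over the 122 peaks, which share libraries and are not independent, the fold changes of HP1α WT and HP1γ WT had a correlation of 0.96, with 101 of the same sign.

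The effect of Treg was examined next. Against Tconv without Treg, HP1α WT Tconv exposed to Treg had 2 calls higher (1.64% of the 122 peaks against 4.92% of all peaks) and 5 lower (4.1% against 1.84%), together 5.74% against 6.77%. HP1α KO cells had 0 higher (background 0.264%) and 2 lower (1.64% against 0.284%), together 1.64% against 0.548%. HP1γ WT cells had 0 higher (background 0.0671%) and 1 lower (0.82% against 0.0699%), with a background of 0.137% in either direction. HP1γ KO cells had 5 higher (4.1% against 6.1%) and 4 lower (3.28% against 2.06%), together 7.38% against 8.15%. Nfatc2 made up 3, 2, 1 and 4 of the lower calls and 0 of the higher ones. Its median log2 fold change over 25 peaks was -0.70 in HP1α WT cells against 0.10 for all peaks, -0.30 against 0.04 in HP1α KO, -0.45 against 0.03 in HP1γ WT and -0.50 against -0.02 in HP1γ KO, with between 21 and 23 of the 25 below 0 in each. Most Nfatc2 peaks thus had values below 0 with Treg in each line and genotype, and no library is shared between these 4 comparisons.

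The Nfatc2 +101.7 kb peak (chr2:168330161-168330990) was called lower with Treg in 3 of the 4. In the HP1γ line it had 3.15, 3.81 and 3.10 in WT Tconv and 1.69, 2.51 and 2.26 in WT Tconv exposed to Treg (log2 fold change -1.25, SE 0.25, edgeR adjusted p 0.0499). In HP1α WT cells it had 3.23, 3.01 and 2.44 without Treg, from 695, 185 and 38 reads, and 0.31 and 1.70 with Treg, from 16 and 6 reads (-2.54, SE 0.51, edgeR adjusted p 0.00517). The HP1α KO line, where only 1 Treg-exposed library was kept, had -1.63 (SE 0.29, edgeR adjusted p 0.013), with the spread taken from the other groups of the line, since that library is assumed to vary like them. This call was lost with DESeq2, with the earlier quasi-dispersion and with only the groups compared. Libraries did not overlap at this peak in the 3 comparisons, as at 22.7% of all peaks in HP1γ WT, 35.3% in HP1α WT and 38.9% in HP1α KO cells. The call in HP1γ WT cells was lost without any of 4 libraries, Tconv replicate 1 or 2 or Treg replicate 1 or 3, and under 4 of 8 other settings, which were library size alone, log2 depth as a covariate, the earlier quasi-dispersion and only the groups compared. That in HP1α WT cells was lost without Treg replicate 1 (-1.46). In HP1α KO cells the other lower call was Nfatc2 +29.8 kb, with -1.13 (edgeR adjusted p 0.0456), lost without KO Tconv replicate 2 or 3 and under 6 of 9 other settings. In HP1γ WT cells the smallest p was at Egr3 -20.0 kb, with -0.51 (edgeR adjusted p 0.0395), under the threshold on the fold.

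The Nfatc2 -5.4 kb peak (chr2:168436311-168439010) had 5.5, 5.04 and 5.06 in HP1α WT Tconv and 2.80 and 3.69 with Treg, or 92 and 24 reads, 4.99-fold lower (log2 -2.32, SE 0.35, edgeR adjusted p 0.000761). In HP1γ KO cells it had 4.95, 4.94 and 5.12 without Treg and 2.74, 4.12 and 4.10 with Treg (-1.28, SE 0.25, edgeR adjusted p 0.00264), a call lost without KO Treg replicate 1. Of the 2 HP1α WT libraries with Treg, that at 3.69 lay within the range of naive cells (3.16 to 3.73) and the other below it. The HP1α WT call was lost without Treg replicate 1 (-1.64). Nfatc2 +73.8 kb was lower in the same cells, with -1.73 (SE 0.33, edgeR adjusted p 0.00364) in HP1α WT, also lost without Treg replicate 1, and -1.0 (SE 0.23, edgeR adjusted p 0.00699) in HP1γ KO. In HP1γ KO cells Nfatc2 +58.1 kb and +99.8 kb were also called lower, with -1.82 (SE 0.39, edgeR adjusted p 0.00453) and -1.01 (edgeR adjusted p 0.0173). The calls in HP1γ KO cells at +73.8 kb and +99.8 kb were each lost without 2 of the 6 libraries, one of them KO Treg replicate 1 and the other KO Tconv replicate 1 or 2, and under 4 and 5 of 8 other settings, while that at +58.1 kb held under all 8. The smallest p there was at Nfatc2 +6.1 kb, which had -0.65 (edgeR adjusted p 0.000745).

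**Figure D2:**
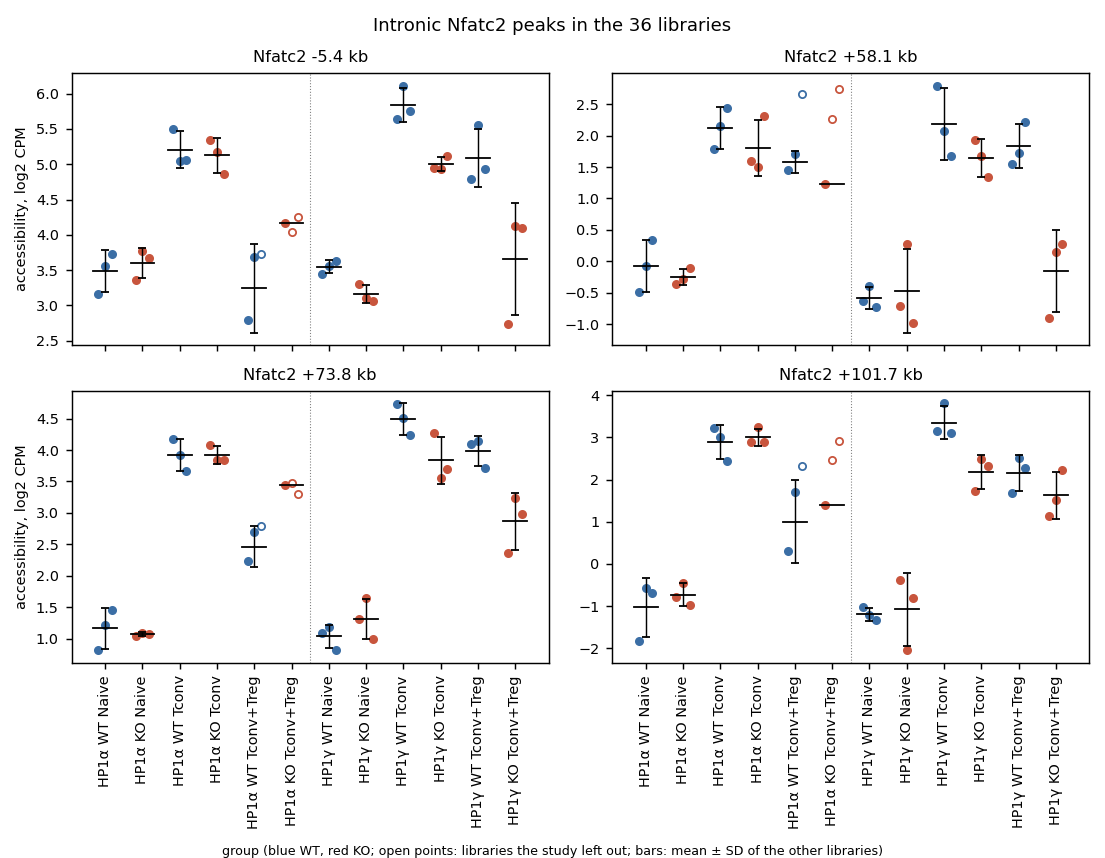
Accessibility (log2 CPM, vertical axis) of 4 intronic Nfatc2 peaks in the 12 groups (horizontal axis), with 1 point per library, open points for the 3 libraries left out by the study, and bars for the mean ± SD of the others. All 4 peaks are higher in Tconv than in naive cells, and in HP1γ KO Tconv exposed to Treg the -5.4, +58.1 and +73.8 kb peaks are below the WT libraries with Treg.

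Calls higher with Treg lay in other genes. Nr4a2 -4.8 kb (chr2:57010501-57011550) had 0.61, 0.90 and 0.92 in HP1α WT Tconv and 2.93 and 1.70 with Treg (log2 fold change 2.15, SE 0.46, edgeR adjusted p 0.00893). It rested on 101 and 6 reads with Treg, and was not called without Treg replicate 1 (0.97) or WT Tconv replicate 1. In HP1γ KO cells the intronic Nfatc1 +36.2 kb peak (chr18:80714751-80715550) had 1.0, 1.48 and 0.79 without Treg and 2.81, 2.00 and 2.19 with Treg (1.36, SE 0.25, edgeR adjusted p 0.00181). Egr2 -25.5 kb had 0.09, 0.19 and 0.41 without and 1.87, 1.2 and 1.85 with Treg (1.41, SE 0.27, edgeR adjusted p 0.00225), which overlaps the HP1γ KO naive libraries (1.69 to 1.93). The calls at Nfatc1 +36.2 kb and Egr2 -25.5 kb held without each library in turn and were lost with only the groups compared.

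Of the remaining calls, Nfatc1 +65.6 kb was called higher in HP1α WT (2.43, edgeR adjusted p 0.0138) and HP1γ KO cells (1.59, edgeR adjusted p 0.0105), but its libraries overlapped in both, and without HP1α WT Treg replicate 1 it was -0.53. Nfatc1 +55.2 kb (1.08) overlapped as well in HP1γ KO cells, and Nr4a2 -60.5 kb (1.2, edgeR adjusted p 0.0233) was lost without any of 3 libraries, KO Treg replicate 1 or KO Tconv replicate 2 or 3. In HP1α WT cells Egr3 -14.9 kb (-1.24, edgeR adjusted p 0.0344) was lost without any of 3 of the 5 libraries and Nfatc1 -30.3 kb (-1.46, edgeR adjusted p 0.0493) without any of 4. The 7 calls in HP1α WT cells were 0 without WT Treg replicate 1 and 3 without WT Tconv replicate 1. The 9 calls in HP1γ KO cells were 3 without KO Treg replicate 1 and 14 without KO Tconv replicate 2. The 2 calls in HP1α KO cells were 1 without KO Tconv replicate 2, and the 1 call in HP1γ WT cells was 3 without WT Tconv replicate 3 and 2 without WT Treg replicate 2.

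Markers of other cells were read beside the Treg comparison, from their peaks at the TSS and as summed log2 CPM. Of 8 Treg markers 7 had such a peak, and Foxp3 had none. In HP1γ KO cells the Treg markers had 8.46 to 8.61 with Treg and 7.94 to 8.38 without, with 3 of 7 higher and 1 lower without overlap, where the libraries of 22.3% of all peaks did not overlap. The 3 myeloid markers with a peak, of 8, had 5.69 to 6.18 against 5.23 to 5.48, with 1 higher and 1 lower, and 3 of 8 Th1 markers were lower. In HP1α WT cells, where 35.3% of all peaks did not overlap, the Treg markers had 8.07 to 8.48 against 7.65 to 8.12, with 2 higher and 2 lower. The Th1 markers had 7.47 to 8.23 against 8.29 to 8.81, with 6 of 8 lower, and 5 of 7 CD4 T cell markers were lower. The myeloid markers had 5.44 to 6.05 against 4.97 to 5.26, and the 1 B cell marker of 8 with a peak had 2.11 to 2.93 against 1.87 to 2.11. In HP1γ WT cells, where 22.7% of all peaks did not overlap, 3 of 7 CD4 T cell markers were lower and 0 higher. Their Th1 markers had 8.32 to 9.0 against 8.74 to 9.24, with 0 of 8 apart. In HP1α KO cells the 1 library with Treg had 8.62 for Th1 markers, against 8.24 to 8.71 without. Tconv were sorted on CD4 and TCR Vβ6 and against Thy1.1, the marker of the injected Treg, and how many other cells remained was not tested. Between Tconv and naive cells of HP1γ WT, where 75.5% of all peaks did not overlap, myeloid markers had 4.94 to 5.14 against 4.35 to 4.58. Of 3 with a peak 2 were higher and 1 lower. CD8 T cell markers had 5.42 to 5.56 against 6.41 to 6.47, with 2 of 5 higher and 2 lower. The part of all these markers in the changes at Nfatc2, Nfatc1, Nr4a2 and Egr2 was not tested.

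Whether these genes differ between HP1γ KO and WT cells was addressed by comparing the genotypes in each condition. Naive cells gave 0 calls by edgeR among the 122 peaks, where 0.133% of all peaks were called higher and 0.00699% lower (0.14% together). At an unadjusted p under 0.05 there were 12, and DESeq2 called 4. The shares of all peaks for these counts are not reported here, so they cannot be set against a background. The smallest p was at Nr4a3 +24.6 kb, with 1.29, 1.42 and 1.53 in WT and 2.32, 2.71 and 2.33 in KO (log2 fold change 1.04, SE 0.23, edgeR adjusted p 0.0718). The groups did not overlap there, and the difference did not pass the threshold. Tconv gave 1 call higher in KO (0.82% against 1.69% of all peaks) and 4 lower (3.28% against 1.66%), together 4.1% against 3.35%. With Treg there were 3 higher (2.46% against 6.48%) and 6 lower (4.92% against 5.38%), together 7.38% against 11.9%. The share called in Tconv was near the background and that with Treg was below it, most of all for higher calls. The medians over the 122 peaks were -0.04 and -0.08, against 0.02 and -0.02 for all peaks. The KO and WT libraries did not overlap at 41 of the 122 peaks in naive cells (33.6% against 28.1% of all peaks), at 29 in Tconv (23.8% against 18.8%) and at 37 with Treg (30.3% against 31.8%). This includes 5 of the 5 calls in Tconv and 7 of the 9 with Treg.

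The calls were split by gene. Without HP1γ all 7 calls at Nfatc2, 3 in Tconv and 4 with Treg, were lower, and all 3 calls at Nfatc1, with Treg, were higher. That is 12% of the 25 Nfatc2 peaks in Tconv, against 1.66% of all peaks called lower, and 16.0% with Treg, against 5.38%. For the 32 Nfatc1 peaks it is 9.38% with Treg, near the 6.48% of all peaks called higher. The median over the 25 Nfatc2 peaks was -0.04 for naive cells, -0.42 for Tconv and -0.44 for Treg-exposed Tconv, with 14, 19 and 21 peaks below 0. Over the 32 Nfatc1 peaks it was 0.19, 0.30 and 0.22, with 25, 26 and 20 above 0. Medians below 0 were not particular to Nfatc2. Egr3 had -0.35 in Tconv and -0.38 with Treg, with 12 and 11 of 14 peaks below 0 and 0 called, and 10 of 12 Nr4a3 peaks were below 0 in both. The 3 comparisons share no library with each other. Those in Tconv and with Treg do share libraries with the Treg comparisons of this line. Calls at the same peak in both are therefore not independent. At Nfatc2 -5.4, +58.1 and +73.8 kb and Nfatc1 +36.2 and +65.6 kb both used the same HP1γ KO libraries with Treg. At Nfatc2 +101.7 kb both used the same HP1γ WT Tconv libraries.

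In Tconv exposed to Treg, the Nfatc2 -5.4 kb peak had 4.79, 5.55 and 4.93 in WT and 2.74, 4.12 and 4.10 in KO (log2 fold change -1.38, SE 0.26, edgeR adjusted p 0.00151). Nfatc2 +58.1 kb (chr2:168373721-168374690) had 1.54, 1.72 and 2.22 in WT and -0.90, 0.15 and 0.28 in KO (-1.93, SE 0.40, edgeR adjusted p 0.00316). Nfatc2 +73.8 kb (chr2:168357551-168359480) had 4.09, 4.15 and 3.71 in WT and 2.37, 3.24 and 2.98 in KO (-1.13, SE 0.23, edgeR adjusted p 0.00303). At each of these 3 peaks every KO library was below every WT library. The KO libraries still lay above naive KO cells at +73.8 kb, and at +58.1 kb they overlapped them. The calls at -5.4 kb and +58.1 kb held without each library in turn and under 8 of 8 other settings. That at +73.8 kb was lost without KO replicate 1 (-0.88).

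The smallest p with Treg was at Nfatc2 +6.1 kb, with 5.39, 5.44 and 5.23 in WT and 4.68, 4.82 and 4.61 in KO (-0.65, SE 0.11, edgeR adjusted p 0.000701), a difference without overlap that was under the threshold on the fold. The same peak had the smallest p in Tconv, with -0.52 (edgeR adjusted p 0.00453). Nfatc2 +36.6 kb, the intronic peak of naive cells, was called with -1.56 (SE 0.47, edgeR adjusted p 0.0266), but its libraries overlapped, and the call was lost without any of 4 libraries, WT replicates 2 and 3 and KO replicates 1 and 2. In Tconv without Treg the lower calls were Nfatc2 +101.7 kb, with 3.15, 3.81 and 3.10 in WT and 1.73, 2.48 and 2.31 in KO (-1.19, SE 0.23, edgeR adjusted p 0.00599), Nfatc2 +29.8 kb (-1.14, SE 0.26, edgeR adjusted p 0.015) and Nfatc2 +48.9 kb (-1.13, SE 0.31, edgeR adjusted p 0.0333). The first was lost without WT replicate 2, the second without WT replicate 1 or KO replicate 3, and the third without any of 4 of the 6 libraries, WT replicate 1 or 2 or KO replicate 1 or 3, and under 4 of 8 other settings. The Nfatc2 promoter had -0.44 (edgeR adjusted p 0.023) in Tconv, under the threshold on the fold.

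**Figure D3:**
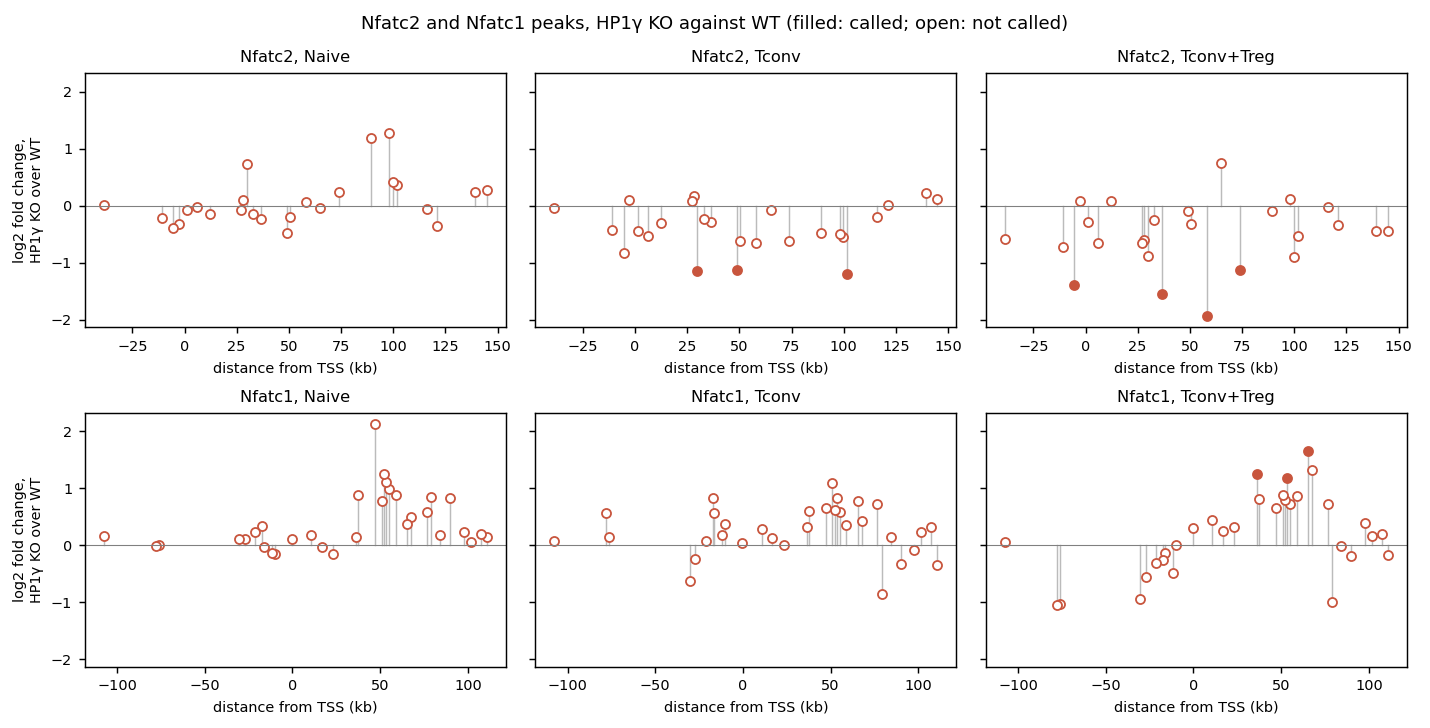
Log2 fold change of HP1γ KO over WT (vertical axis) of each Nfatc2 and Nfatc1 peak against its distance from the TSS in kb (horizontal axis), for naive cells, Tconv and Tconv exposed to Treg, filled where called. The 7 filled Nfatc2 points lie below 0 and the 3 filled Nfatc1 points, all with Treg, above it.

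At Nfatc1, with Treg, the intronic +36.2 kb peak had 1.58, 0.71 and 0.85 in WT and 2.81, 2.00 and 2.19 in KO (1.24, SE 0.27, edgeR adjusted p 0.00367), and the +53.6 kb peak had 0.05, 0.86 and 1.22 in WT and 2.06, 1.39 and 1.86 in KO (1.18, SE 0.29, edgeR adjusted p 0.00921). Neither overlapped, but without KO replicate 1 both calls were lost, at 0.94 and 0.83, and the latter also without WT replicate 1. The +65.6 kb peak (1.65, SE 0.42, edgeR adjusted p 0.0108) had 0.91, 0.80 and 1.53 in WT and 3.41, 1.43 and 2.31 in KO, which overlapped, and had 0.87 without KO replicate 1. Its call was also lost without WT replicate 2. Each of these Nfatc1 calls held under 7 of 8 other settings and was lost with only the groups compared. The Nfatc1 promoter was not called in any condition.

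Calls in the NR4A and EGR genes were fewer. With Treg, the intronic Nr4a3 +31.7 kb peak (chr4:48076391-48077270) had 2.15, 2.71 and 2.46 in WT and 1.03, 1.51 and 1.73 in KO (-1.03, SE 0.23, edgeR adjusted p 0.00529). Nr4a3 -80.1 kb, nearly closed in Tconv, had -0.04, 0.73 and 0.46 in WT and -2.13, -0.73 and -0.35 in KO (-1.42, SE 0.41, edgeR adjusted p 0.0208). Both calls were lost without KO replicate 1 or WT replicate 2, and under 4 and 1 of 8 other settings. The Nr4a2 promoter had 0.47 (edgeR adjusted p 0.028), under the threshold on the fold, and Nr4a1 had no call. In Tconv, Egr2 -122.0 kb had 1.26, 0.70 and 1.71 in WT and 2.13, 1.84 and 2.56 in KO (1.03, SE 0.21, edgeR adjusted p 0.00866), a call lost without WT replicate 2 or KO replicate 3 and under 5 of 8 other settings. Egr1 +17.0 kb had 120, 39 and 20 reads in WT and 14, 13 and 6 in KO (-2.18, SE 0.52, edgeR adjusted p 0.0146), and was lost without WT replicate 1 or KO replicate 3 and under 3 of 8 other settings. No call at an EGR gene was made with Treg or in naive cells.

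**Figure D4:**
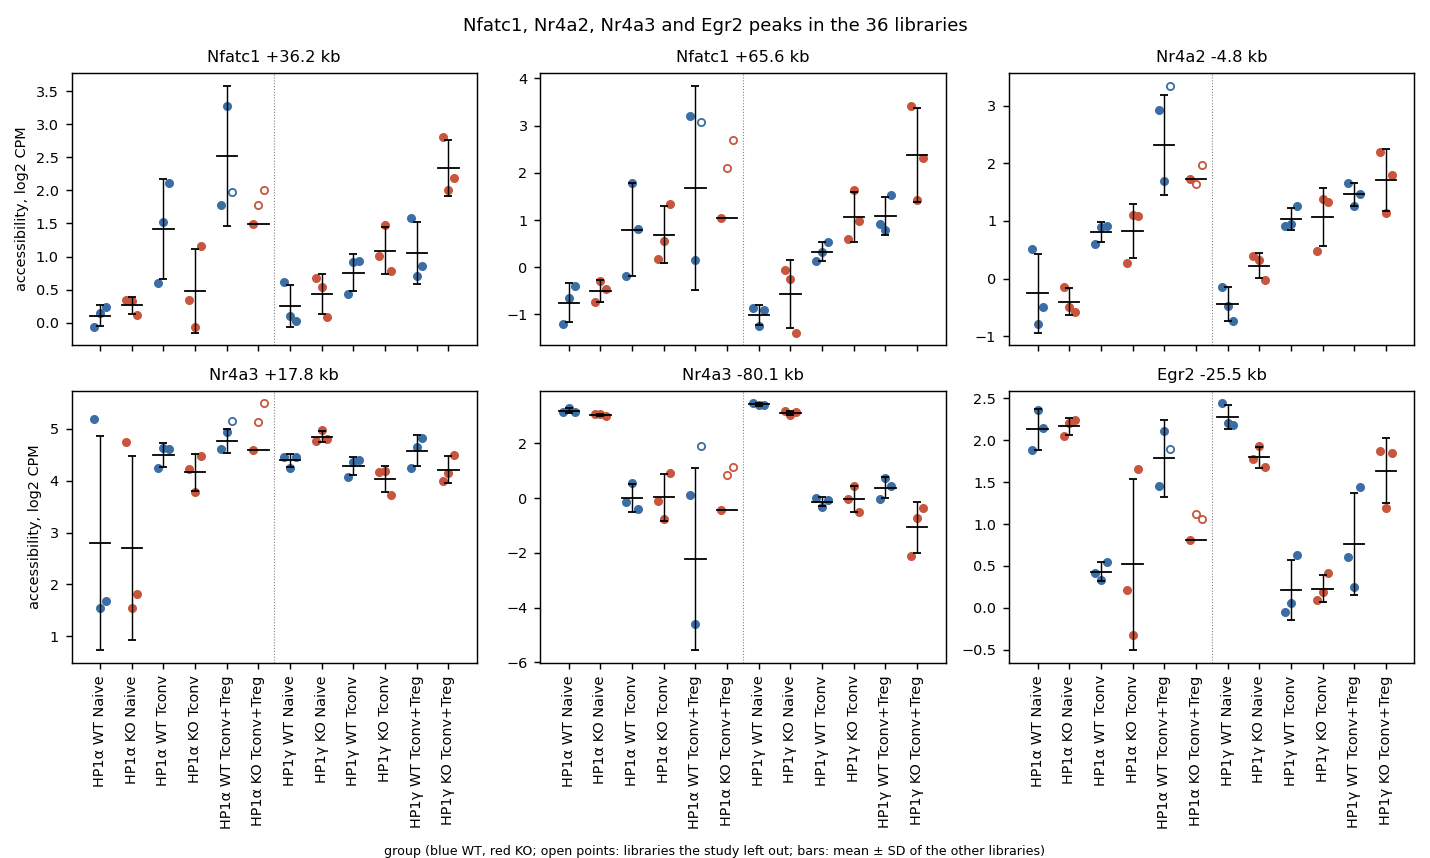
Accessibility (log2 CPM, vertical axis) of 6 peaks of Nfatc1, Nr4a2, Nr4a3 and Egr2 in the 12 groups (horizontal axis), with 1 point per library in the order of replicates 1 to 3, open points for the 3 libraries left out by the study, and bars for the mean ± SD of the others. At Nr4a3 +17.8 kb naive replicate 1 of HP1α WT and KO stands at 5.18 and 4.75, apart from the other 4 naive libraries of that line, and at Nfatc1 +36.2 kb the HP1γ KO libraries with Treg lie above the WT libraries.

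The counts depended on single libraries. With Treg, leaving out KO replicate 2 gave 20 calls in place of 9, leaving out KO replicate 1 gave 2, and leaving out WT replicate 2 gave 5. For Tconv, leaving out WT replicate 1 or 2 gave 3 or 2 calls in place of 5, and leaving out KO replicate 3 gave 1. Treg markers were summed to 8.46 to 8.61 in HP1γ KO with Treg and 7.76 to 8.18 in WT, with 2 of 7 higher without overlap, near the 31.8% of all peaks without overlap. One of these was Ctla4, at 7.31 to 7.50 against 6.40 to 6.54. Myeloid markers, of which 3 of 8 had a peak at the TSS, had 5.69 to 6.18 against 5.01 to 5.41, with Cebpa higher and Itgam lower without overlap, and the 1 B cell marker of 8 with a peak had 2.99 to 3.26 against 2.27 to 2.58. In Tconv without Treg the myeloid markers had 5.23 to 5.48 in KO and 4.94 to 5.14 in WT, and the Treg markers overlapped. The cells were sorted on CD4 and TCR Vβ6 and against Thy1.1, and how many other cells remained was not tested. The part of these markers in the differences was not tested either.

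For HP1α, the comparison of genotypes gave 0 calls among the 122 peaks in each condition. The background was 0.0042% higher and 0.0014% lower in naive cells (0.00559% together), 0.00839% and 0.0126% in Tconv (0.021%), and 0.218% and 1.42% with Treg (1.63%). At an unadjusted p under 0.05 naive cells had 0 peaks and Tconv 6, and the share of all peaks at this threshold is not reported here. The smallest p lay at Nfatc2 +36.6 kb in naive cells (0.28, edgeR adjusted p 1.0), at Egr3 -98.3 kb in Tconv (0.47, edgeR adjusted p 0.45) and at Nfatc1 +65.6 kb with Treg (-2.01, SE 0.60, edgeR adjusted p 0.0951). With Treg, 1 KO library was compared with 2 WT libraries of 12.7 and 1.49 M reads, and simulated log2 fold changes of 2 were recovered at 30.5% of peaks in this design against 88.5% in the HP1γ design, so a difference of that size could often go undetected. Only 200 peaks were shifted in the simulation, so the rates themselves need not hold for the data.

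The tests of the difference itself called 0 of the 122 peaks, by edgeR, in each of the 4 interactions. The effect of Treg differed between HP1γ KO and WT with 18 peaks at an unadjusted p under 0.05 and 0 called (background 0.0014%), and between HP1α KO and WT with 9 and 0 (0.0461%). In the test of the difference between Tconv and naive cells across genotypes, 20 peaks had an unadjusted p under 0.05 for HP1γ and 3 for HP1α. By edgeR 0 were called for either (background 0.014% and 0.0%), and DESeq2 called 4 for HP1γ. The shares of all peaks at the unadjusted threshold and by DESeq2 are not reported here, so these counts show no difference between genotypes. The smallest p lay at Nfatc2 +65.1 kb (0.82, edgeR adjusted p 0.272) for Treg in HP1γ, Egr3 -76.1 kb (-2.31, 0.217) for Treg in HP1α, Nr4a3 +24.6 kb (-1.48, 0.206) for activation in HP1γ, and Nr4a1 -8.4 kb (0.50, 1.0) for activation in HP1α, each with its edgeR adjusted p. That a peak of Nfatc2 or Nfatc1 responded to Treg more in HP1γ KO than in WT cells was therefore not shown, nor was the opposite.

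Genes around this pathway were counted in 5 lists, of which 57 of 58 genes had a peak, with 707 peaks in all. In HP1γ WT cells 184 were called higher and 158 lower in Tconv than in naive cells, together 48.4% against 46.5% of all peaks (24.5% higher and 22.0% lower), with a median log2 fold change of 0.10 against 0.08 for all peaks. Genes of calcium entry and calcineurin, which act before NFAT, had 70 higher and 33 lower of 177 (median 0.43). The smallest p was at 2 peaks of Itpr1, the calcium channel of the endoplasmic reticulum, with 7.13 and 4.72. The other NFAT factors and the NFAT inhibitors had 16 higher and 44 lower of 124 (median -0.50), with the smallest p at the calcineurin inhibitor Rcan3 (-3.08) and the NFAT kinase Dyrk2 (-3.59). MAPK, SRF and EGR co-repressor genes had 48 and 27 of 163 (median 0.42), with Nab1, a co-repressor of EGR proteins, at 4.02 and Srf at -4.35. Anergy genes had 29 and 46 of 170 (median -0.26), with Dgkz, which clears diacylglycerol, at -3.48 and the ubiquitin ligase Cblb at -3.62. Retinoid receptors and NR4A cofactors had 21 and 8 of 73 (median 0.28), with Rxra, a partner of NR4A receptors, at 4.07.

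Between HP1γ KO and WT with Treg, 35 of the 707 peaks were called higher and 56 lower, together 12.9% against 11.9% of all peaks. The other NFAT factors and inhibitors had 9 and 17 of 124, or 21.0% (median -0.20 against -0.02 for all peaks), and the 2 peaks of smallest p were higher, with Rcan1, a feedback inhibitor of calcineurin, at 2.07 (edgeR adjusted p 0.000159) and the NFAT kinase Csnk1a1 at 1.59. Retinoid receptors and cofactors had 0 and 11 of 73, or 15.1% (median -0.39), with 2 peaks of Rxra at -1.55 and -1.82. Calcium and calcineurin genes had 5 and 11 of 177 (median -0.19), and the 2 of smallest p were higher, with Stim1 at 1.14 and Itpr1 at 1.84, MAPK, SRF and co-repressor genes 13 and 10 of 163, with Nab1 at 1.69, and anergy genes 8 and 7 of 170, with Nt5e at 1.40. Tconv had 15 lower and 6 higher (2.97% against 3.35% of all peaks), and naive cells 0 and 3 (0.424% against 0.14%).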

How the data were processed

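The authors deposited unnormalized read counts at merged peaks for 36 ATAC-seq libraries of mouse CD4 T cells. Per the methods, reads were trimmed (Trim Galore 0.6.7), aligned to GRCm39 with BWA-MEM, filtered for mapping quality and duplicates, peaks were called per sample with HMMRATAC and merged, and reads per peak were counted with featureCounts 2.0.3, so that the fragment ends of long or neighbouring peaks can enter several counts. Of 71512 intervals 3 had no width and were left out, and 0 per-sample columns were unused. Each line was fitted apart with edgeR 4.0.16 (R 4.3.3, TMM, filterByExpr, quasi-likelihood F test, two-sided), HP1α on the 15 libraries kept by the study and HP1γ on 18, with Benjamini-Hochberg adjustment over all peaks of a comparison. A prior count of 2 entered log2 CPM. Biological variation (BCV) was 26.6% in HP1α and 22.2% in HP1γ.

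The genes and lists were chosen with earlier results of these data known. Named were the promoter peak of each gene (over the TSS of its canonical transcript), the peak of smallest p in each comparison, every called peak up to 8 in comparisons of genotype or Treg, per gene the higher and the lower call of smallest p between Tconv and naive cells, and 2 peaks per list, of which some are not reported here. Other named peaks, those at Nr4a3 +12.7, +17.8 and +24.6 kb in the HP1α line among them, were chosen after their values were seen. On simulated counts, where 200 peaks were shifted by 2 on the log2 scale, the fit recovered 91.5% between HP1γ WT Tconv and naive cells, 88.5% between HP1γ KO and WT with Treg and 30.5% between HP1α KO and WT with Treg. No replicates of a group agreed within sampling noise.

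To check whether replicate numbers pair the libraries, deviations from the group means were correlated across peaks between same-numbered libraries. They exceeded 0.1 in all pairs of HP1α naive KO and WT (0.25 to 0.50), of HP1γ WT with against without Treg (0.20 to 0.29), and of HP1γ KO against WT under Treg (0.15 to 0.32). What a number marks is not stated in the labels. Alternatives were library size alone, loess offsets (span 0.3), no filter, log2 depth as a covariate, the replicate block, only the groups compared, all HP1α libraries, DESeq2 1.42.0 and each library left out. edgeR's earlier quasi-dispersion was added after seeing the data. Motif letters were searched in GRCm39. Depth (1.49 to 96.8 M reads at peaks) limits the precision.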

Additional observations from a re-analysis of the deposited data

How the results depend on the processing

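Of the named fold changes under settings other than leaving out a library, 763 were called under the reported or the other setting, of which 684 kept direction and call, 73 lost the call, 6 gained it and 0 reversed. Among the calls for Treg or genotype, 1 turned without a library, Nfatc1 +65.6 kb for Treg in HP1α WT cells (2.43, and -0.53 without Treg replicate 1). Of the counts of called peaks, 22 of 153 under alternatives and 18 of 120 without 1 library moved by over 1.5 times. For Treg in HP1α WT cells the 7 calls became 3 with log2 depth as a covariate. In HP1α KO cells the 2 became 1 with library size alone and 0 with the earlier quasi-dispersion (chosen after seeing the data), with only the groups compared, or with DESeq2. In HP1γ WT cells the 1 became 3 with loess offsets and 0 with library size alone, log2 depth, the earlier quasi-dispersion or only the groups compared. In HP1γ KO cells the 9 became 1 with only the groups compared. Between KO and WT, the 0 with HP1α and Treg became 2 with DESeq2. The 0 in HP1γ naive cells became 1 with loess offsets or the earlier quasi-dispersion, 3 with only the groups compared and 4 with DESeq2. The 5 in HP1γ Tconv became 0 with the earlier quasi-dispersion or only the groups compared and 2 with DESeq2, and the 9 with Treg became 15 with log2 depth and 3 with only the groups compared. The interaction of HP1γ and activation went from 0 to 4 with DESeq2. The shares of all peaks called under these settings are not reported here, and in all of these the cause was not tested.

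The replicate block left 9 calls between HP1γ KO and WT with Treg, 1 with Treg in HP1γ WT and 0 between HP1α KO and WT naive cells. No count thus moved past 1.5 times in the comparisons where all pairs exceeded 0.1. Elsewhere only some pairs did, as between KO and WT Tconv of HP1γ (0.54, 0.07 and 0.25) and of HP1α (0.56, -0.23 and 0.42). There the block also moved no count past 1.5 times. It lost single calls, among them Nfatc2 +29.8 kb for Treg in HP1α KO cells and Egr2 -122.0 kb between HP1γ KO and WT Tconv. Leaving out 1 library in turn gave 47 to 53 calls between Tconv and naive cells in HP1α WT and in HP1α KO, 54 to 61 in HP1γ WT and 46 to 54 in HP1γ KO. Treg calls ranged from 0 to 8 in HP1α WT, 1 to 3 in HP1α KO, 0 to 3 in HP1γ WT and 3 to 14 in HP1γ KO. KO against WT gave 0 to 1 in HP1α Tconv (1 without KO Tconv replicate 1) and 0 in naive cells and with Treg, and 0 in HP1γ naive cells, 1 to 7 in Tconv and 2 to 20 with Treg. The interactions stayed at 0 without each library. The 3 kept HP1α libraries with Treg held 1.49, 12.7 and 50.7 M reads.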

Other observations

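For the promoter peak of each gene, the most similar promoter peak of another protein-coding gene, among 10723 compared by the correlation of log2 CPM over the 33 kept libraries, was that of Tspan4 for Nfatc1 (0.921), B4galt7 for Nfatc2 (0.961), Cbx8 for Nr4a1 (0.857), Tigit for Nr4a2 (0.933), Tatdn2 for Nr4a3 (0.940), Ell for Egr1 (0.938), Sesn3 for Egr2 (0.968) and Arl4c for Egr3 (0.869). These libraries share lines, conditions and depth, so the values describe likeness only. Tigit, which encodes an inhibitory receptor, thus followed Nr4a2 most closely.

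Of the 11 peaks called lower in Tconv in all 4 comparisons, 6 held RUNX letters (54.5%), against 30.6% of all peaks called so, and of the 29 called higher 6 did (20.7%), against 40.3%. These shares rest on few peaks, and no test was run.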
